A study of Mus musculus with 12 samples.

Results

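The T cell receptor complex and the proteins that act just beneath it were followed at the mRNA level in EL-4, a line grown from a mouse T cell lymphoma. The set was named gene by gene and holds 9 genes, of which 8 have a probe set with exactly 1 gene symbol, among 19938 genes that do. The measured genes are the receptor chains Cd3e, Cd3g and Cd247, the kinases Fyn and Zap70, the adaptors Lat and Lcp2 and the phospholipase Plcg1, each with 1 probe set. The Src family kinase Lck has no such probe set and was not analysed here.

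When the receptor binds antigen, Src family kinases phosphorylate tyrosine motifs in the tails of the CD3 and zeta chains. The kinase ZAP-70 docks there and phosphorylates the adaptors LAT and SLP-76, the product of Lcp2, which gather phospholipase C gamma 1. That enzyme releases diacylglycerol and a second messenger that opens calcium stores. Phorbol 12-myristate 13-acetate (PMA) stands in for diacylglycerol and ionomycin lets calcium in, so the combination, abbreviated P/I, acts below all genes of the set.

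Total RNA of EL-4 cells from 4 groups of 3 biological replicates was hybridised to 12 Affymetrix Mouse Gene 1.0ST arrays. Cells were pretreated for 30 min with the solvent DMSO or with cycloheximide (CHX) in DMSO at 10 μg/ml, which blocks protein synthesis. They were then left without stimulation or were stimulated for 4 h with 10 ng/ml PMA together with 1 μM ionomycin. The 4 groups are called DMSO-treated, P/I-stimulated, CHX-treated and CHX-treated P/I-stimulated cells. All arrays come from the same cell line, and the time that unstimulated cells spent in CHX after the pretreatment is not given in the sources used here. Values are log2 robust multichip average (RMA) values, so a difference of 1 is a doubling. They are set relative to the other probe sets of an array, and less mRNA per cell cannot be told apart from fewer cells that carry it. The test was limma's, and a difference counted as called where p, adjusted by Benjamini and Hochberg over the 23410 probe sets with a symbol, was under 0.1.

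The identity of the cells was checked against marker genes. All 10 measured T cell markers had means of log2 7 or more in each group. Of these, 6 lie outside the set, the rest being its members Cd3e, Cd3g, Cd247 and Lat. The coreceptor genes Cd4, Cd8a and Cd8b1 had log2 5.09 ± 0.036, 5.55 ± 0.11 and 5.60 ± 0.17 in DMSO-treated cells (SD, n = 3), the median over all tested probe sets being log2 5.89. Of 9 B cell markers only Cd79b reached log2 7 in DMSO-treated cells, and Cd79a, its obligate partner, had log2 4.35 ± 0.046 (SD, n = 3). Of 9 myeloid markers only Fcer1g did, a signalling chain related to Cd247, with log2 9.87 ± 0.26 (SD, n = 3), while its myeloid relative Tyrobp had log2 5.14 ± 0.079 (SD, n = 3). In P/I-stimulated cells the myeloid marker Cd68 also passed log2 7, having risen by log2 0.67 to 7.39, while the B cell marker Blk rose by 0.80 to 6.06 and Cd79b fell by 0.94 (adjusted p from limma 0.00623, 0.0193 and 0.000343). The part of these changes in the results was not tested. None of 6 natural killer cell markers reached log2 7 in any group. The mean over the B cell list lay between log2 4.98 and 5.30 on all arrays, and that over the myeloid list reached at most log2 5.68. The stimulation itself was checked in DMSO-treated cells, where Il2, Egr2, Nr4a1, Cd69 and Il2ra all rose, by between log2 2.04 and 7.46. In each group replicate 1 correlated least with the other arrays of its group, and results that change without the 4 replicate 1 arrays are given with and without them.

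P/I for 4 h moved genes of this pathway in opposite directions. The kinases Fyn and Zap70 and the adaptors Lat and Lcp2 rose, the receptor chains Cd3e and Cd3g fell, and Cd247 and Plcg1 did not pass the threshold. Thus 4 of 8 genes were higher, against 9.05% of all tested probe sets, and 2 of 8 were lower, against 8.42% (17.5% were called in either direction). The median difference of the 8 genes was log2 0.19, beside log2 -0.028 over all tested probe sets. Without the 4 replicate 1 arrays 4 were higher and 3 lower, with Plcg1 added, while the shares over all tested probe sets rose to 11.98% and 12.64%. With CHX during P/I, 2 of 8 genes were lower, against 12% of all tested probe sets, and 3 were higher, against 13.2% (25.3% in either direction). The 2 that were lower were Fyn and Lat. The P/I effect itself differed between CHX-treated and DMSO-treated cells for 3 genes. The difference was negative for Fyn and Lat (7.62% of all tested probe sets had a negative one). It was positive for Cd3e (6.04% had a positive one, and 13.7% either). In CHX-treated cells alone the P/I effect was not called for any of these 3 genes. CHX in unstimulated cells changed none of the 8 genes by limma, and none had an unadjusted p under 0.05 either. In that comparison 0.0299% of all probe sets were called and 6.87% had an unadjusted p under 0.05.

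**Figure D1:**
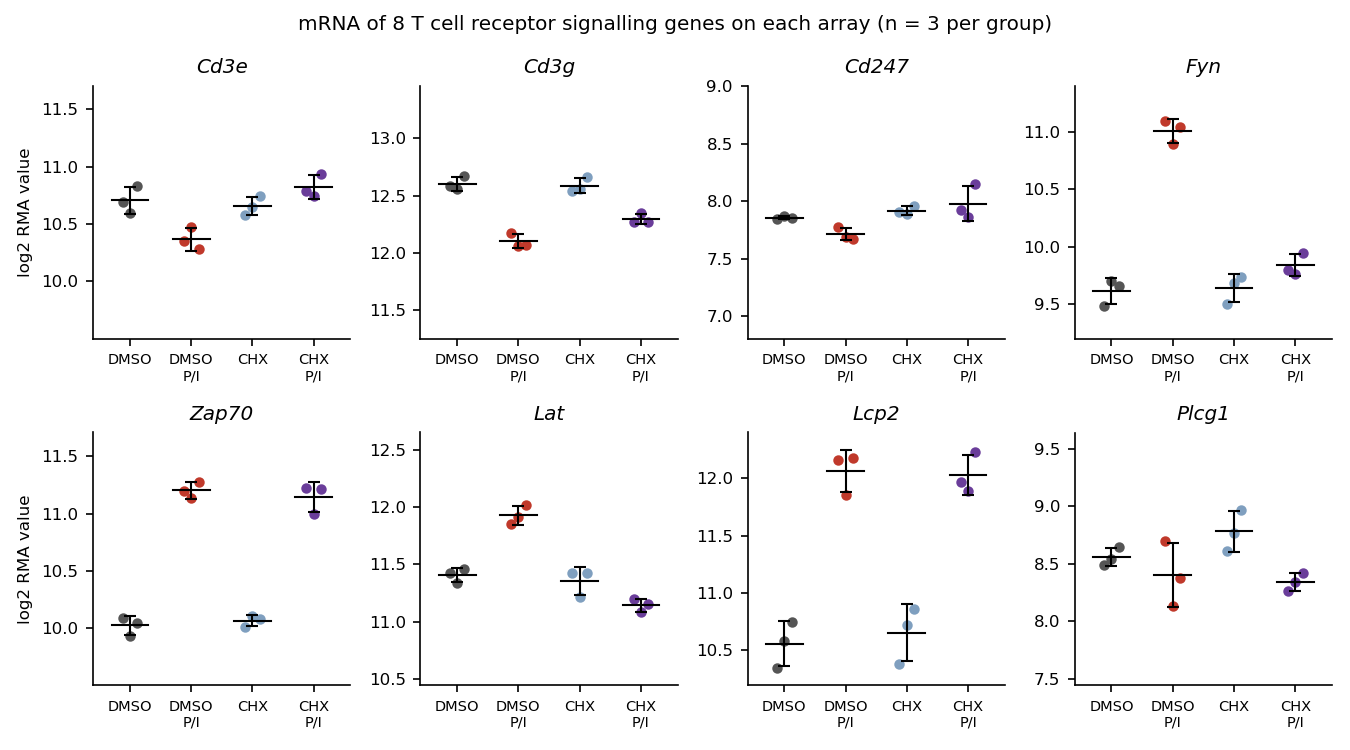
Log2 RMA values (y axis, a separate range for each gene) of the 8 measured genes in the 4 groups (x axis). Each point is an array, 3 per group, with the group mean as a long bar and the SD as an error bar. Zap70 and Lcp2 are high on all 6 stimulated arrays, Fyn and Lat are highest on the 3 stimulated arrays without CHX, and Cd3g is lowest on those arrays.

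The kinase Zap70, which binds the phosphorylated receptor chains, rose with P/I whether or not protein synthesis was blocked. Its values were log2 10.09, 9.94 and 10.05 in DMSO-treated cells and log2 11.19, 11.13 and 11.27 in P/I-stimulated cells. In CHX-treated cells they were log2 10.01, 10.11 and 10.08, and in CHX-treated P/I-stimulated cells log2 11.22, 11.00 and 11.22. All 6 stimulated arrays lay above all 6 unstimulated ones. The rise was 2.26-fold (log2 1.18, SE 0.085, adjusted p = 3.25e-06 from limma) in DMSO-treated cells and 2.11-fold (log2 1.08, SE 0.085, adjusted p = 6.34e-06 from limma) in CHX-treated cells. The difference between these effects was log2 -0.097, with a 95% confidence interval of -0.36 to 0.17. That interval allows an effect of CHX on the rise of up to about log2 0.36 downwards.

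The adaptor Lcp2 (SLP-76), which ZAP-70 phosphorylates, followed the same order of groups. Its values were log2 10.35, 10.58 and 10.745 in DMSO-treated cells and log2 12.16, 11.85 and 12.18 in P/I-stimulated cells. With CHX they were log2 10.38, 10.72 and 10.86 before and log2 11.97, 11.89 and 12.22 after P/I. Here too the stimulated and unstimulated arrays did not overlap. Lcp2 had the largest P/I effect of the 8 genes, 2.84-fold (log2 1.51, SE 0.15, adjusted p = 3.83e-05 from limma), and rose 2.59-fold in CHX-treated cells (log2 1.37, SE 0.15, adjusted p = 7.43e-05 from limma). The difference between the effects was log2 -0.13, with a 95% confidence interval of -0.60 to 0.33. The sign of the CHX effect during P/I was not settled for Lcp2, at log2 -0.0365 as deposited and 0.0568 once the probe sets were quantile normalized again. For both genes unstimulated cells with and without CHX did not differ beyond their spread, and neither did stimulated cells.

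Fyn, a Src family kinase that phosphorylates the receptor chains, rose in DMSO-treated cells, and little of that rise was seen with CHX. Its values were log2 9.48, 9.70 and 9.65 in DMSO-treated cells and log2 11.10, 10.89 and 11.04 in P/I-stimulated cells. In CHX-treated cells they were log2 9.50, 9.68 and 9.74, and in CHX-treated P/I-stimulated cells log2 9.80, 9.76 and 9.94. The 3 P/I-stimulated arrays without CHX lay apart from the other 9. Fyn rose 2.64-fold with P/I (log2 1.40, SE 0.096, adjusted p = 2.29e-06 from limma). With CHX during P/I it was lower by log2 1.17, to 44.3% of the level without CHX (SE 0.096, adjusted p = 6.58e-06 from limma). In CHX-treated cells P/I moved Fyn by log2 0.20 (SE 0.096), which limma did not call (adjusted p = 0.217), although the 3 stimulated arrays lay above the 3 unstimulated ones. The difference between the P/I effects with and without CHX was log2 -1.20 for Fyn (SE 0.14, adjusted p = 0.000229 from limma). A longer time in CHX may be part of every comparison of CHX-treated P/I-stimulated cells with unstimulated cells, and its part was not tested.

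Lat, the membrane adaptor that gathers Lcp2 and Plcg1, also rose with P/I, by a smaller amount. Its values were log2 11.43, 11.34 and 11.46 in DMSO-treated cells and log2 11.85, 11.92 and 12.015 in P/I-stimulated cells. With CHX they were log2 11.42, 11.22 and 11.42 before and log2 11.20, 11.08 and 11.15 after P/I. The stimulated arrays were thus the highest without CHX and the lowest with it. The rise was 1.43-fold (log2 0.52, SE 0.083, adjusted p = 0.00112 from limma), and CHX during P/I lowered Lat by log2 0.78 (a log2 difference of -0.78, SE 0.083, adjusted p = 4.13e-05 from limma). In CHX-treated cells P/I moved Lat by log2 -0.21 (SE 0.083). This was not called by limma (adjusted p = 0.114), but it was once arrays were centred on their medians (-0.27) or probe sets were quantile normalized again (-0.25), and without replicate 2 of CHX-treated cells (-0.28). Between the pretreatments the P/I effect on Lat differed by log2 -0.73 (SE 0.12, adjusted p = 0.00231 from limma). It was no longer called when the 4 replicate 3 arrays were left out (log2 -0.68, adjusted p = 0.119).

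Among the 4 genes that rose, Fyn and Lat met the study's rule for secondary response genes, which are lowered by CHX during P/I. Here the calls of limma took the place of the study's own analysis of variance and its thresholds. Zap70 and Lcp2 met neither rule, because the rule for primary response genes asks for a mean with CHX at or above that without, and theirs were log2 0.0545 and 0.0365 below it. With a further quantile normalization (log2 0.0568) or without the 4 replicate 1 arrays (0.0411) Lcp2 lay above that limit. It also did so without replicate 1 (0.0118) or replicate 3 (0.0206) of P/I-stimulated cells, or replicate 2 of CHX-treated P/I-stimulated cells (0.0325). Without the latter array Zap70 lay above the limit as well (0.0206). Both the P/I effect in DMSO-treated cells and the CHX effect during P/I use the P/I-stimulated arrays without CHX.

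**Figure D2:**
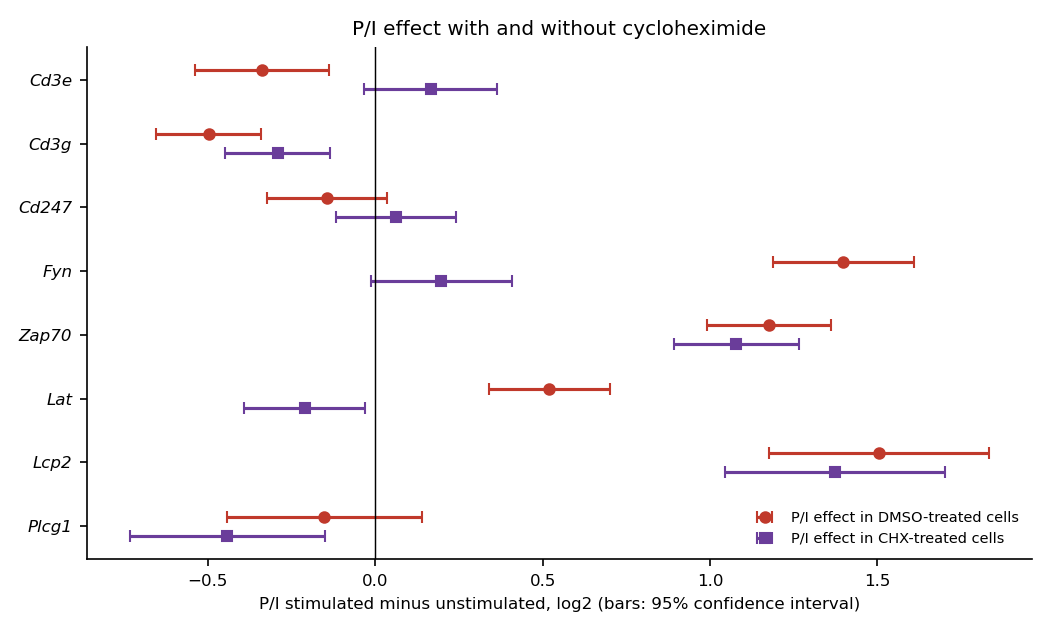
P/I effect on the 8 genes as the difference between stimulated and unstimulated cells in log2 units (x axis), in DMSO-treated (red circles) and CHX-treated cells (purple squares), with 95% confidence intervals from limma as bars. The intervals of Fyn, Lat and Cd3e do not overlap between the pretreatments, and those of Zap70 and Lcp2 lie side by side above 0.

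The CD3 gamma chain Cd3g, one of the chains that carry the receptor's signal into the cell, fell with P/I. Its values were log2 12.58, 12.55 and 12.67 in DMSO-treated cells and log2 12.17, 12.06 and 12.07 in P/I-stimulated cells. In CHX-treated cells they were log2 12.54, 12.56 and 12.66, and in CHX-treated P/I-stimulated cells log2 12.27, 12.35 and 12.27. All 6 stimulated arrays lay below all 6 unstimulated ones. Cd3g fell to 70.8% of the unstimulated level (log2 -0.50, SE 0.072, adjusted p = 0.000578 from limma), and in CHX-treated cells to 81.7% (log2 -0.29, SE 0.072, adjusted p = 0.0147 from limma). The latter was not called without all 4 replicate 2 arrays (-0.33) or all 4 replicate 3 arrays (-0.24). CHX during P/I left it higher by log2 0.19 (adjusted p = 0.0853 from limma), a call that was lost in 15 of 23 alternatives. The P/I effects with and without CHX differed by log2 0.21, with a 95% confidence interval of -0.016 to 0.43. This difference was not called, but it was once probe sets were quantile normalized again (log2 0.31, adjusted p = 0.0567 from limma).

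The CD3 epsilon chain Cd3e, which pairs with the gamma or the delta chain, fell with P/I in DMSO-treated cells, and the P/I effect differed with CHX. Its values were log2 10.69, 10.60 and 10.83 in DMSO-treated cells and log2 10.35, 10.47 and 10.28 in P/I-stimulated cells. With CHX they were log2 10.58, 10.65 and 10.74 before and log2 10.79, 10.74 and 10.935 after P/I. The P/I-stimulated arrays without CHX were below the other 9. Cd3e fell to 79.1% of its level (log2 -0.34, SE 0.091, adjusted p = 0.0271 from limma), and with CHX during P/I it was higher by log2 0.45 (SE 0.091, adjusted p = 0.00342 from limma). In CHX-treated cells P/I moved Cd3e by log2 0.17 (adjusted p = 0.279 from limma), and the P/I effects differed by log2 0.50 between the pretreatments (SE 0.13, adjusted p = 0.0286 from limma). The fall was not called when leaving out the replicate 3 array of DMSO-treated cells (log2 -0.28) or of P/I-stimulated cells (-0.295), nor when leaving out all 4 replicate 3 arrays (-0.23). Without those 4 arrays the CHX effect (0.35, adjusted p = 0.101) and the difference between P/I effects (0.38, adjusted p = 0.338) were not called either.

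Cd247, the zeta chain, which carries most of the receptor's tyrosine motifs, had the smallest P/I effect of the 3 receptor chains of the set in DMSO-treated cells. It ranged from log2 7.84 to 7.87 in DMSO-treated and from log2 7.67 to 7.77 in P/I-stimulated cells, which is log2 -0.14 (SE 0.082, adjusted p = 0.341 from limma) although the groups did not overlap. With CHX it ranged from log2 7.89 to 7.96 before and from log2 7.86 to 8.15 after P/I. CHX during P/I left it higher by log2 0.27 (SE 0.082, adjusted p = 0.0379 from limma), which was not called after median centring of the arrays (0.22), with a variance trend on intensity, or on leaving out replicate 3 of P/I-stimulated (0.25) or of CHX-treated P/I-stimulated cells (0.18). It was not called either without all 4 replicate 2 arrays (0.31) or all 4 replicate 3 arrays (0.16). The delta chain Cd3d, which is not in the set, had log2 8.31 ± 0.53 in DMSO-treated and 8.21 ± 0.40 in P/I-stimulated cells (SD, n = 3). P/I moved Cd3d by log2 -0.097 (SE 0.34, limma adjusted p = 0.913). A change of the size seen for Cd3g was within the error of that fit, which had no term for the replicate number. In the order of the replicate numbers, Cd3d had log2 8.32, 7.77 and 8.84 in DMSO-treated and 8.33, 7.76 and 8.54 in P/I-stimulated cells.

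Counted by overlap, 3 of the 8 genes had all P/I-stimulated arrays below all DMSO-treated ones, namely Cd3e, Cd3g and Cd247, against 12.7% of all tested probe sets. The 4 genes that rose had them all above, against 12.2%. With CHX during P/I, Cd3e, Cd3g and Cd247 lay above without overlap, against 15.3%, and Lat and Fyn below, against 14.8%. In CHX-treated cells, P/I put Zap70, Lcp2 and Fyn above without overlap, against 18.3%, and Cd3g, Lat and Plcg1 below, against 17.4%.

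Plcg1, the phospholipase on which the pathway converges, varied more between replicates than its differences with P/I in DMSO-treated cells. It ranged from log2 8.49 to 8.64 in DMSO-treated cells and from log2 8.13 to 8.70 in P/I-stimulated cells, and these groups overlapped. With CHX it ranged from log2 8.61 to 8.97 before and from log2 8.27 to 8.42 after P/I, and these did not. P/I moved it by log2 -0.15 in DMSO-treated cells (SE 0.13, adjusted p = 0.577 from limma) and by log2 -0.44 in CHX-treated cells (SE 0.13, limma adjusted p = 0.0397). The difference between these effects was log2 -0.29, with a 95% confidence interval of -0.70 to 0.12. In DMSO-treated cells the effect passed the threshold without the 4 replicate 1 arrays (log2 -0.33, adjusted p = 0.0663). In CHX-treated cells it did not pass without the replicate 3 array of CHX-treated cells (-0.35) or the replicate 1 array of CHX-treated P/I-stimulated cells (-0.41), nor without all 4 replicate 2 arrays (-0.45) or all 4 replicate 3 arrays (-0.39). With CHX, 2 of 8 genes rose with P/I (10.2% of all tested probe sets did) and 2 fell (11.6%, with 21.8% called in either direction), Plcg1 and Cd3g being the latter.

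In the order of the group means, neighbouring groups that did not differ were common. For Zap70 and Lcp2 only the step between unstimulated and stimulated cells passed the threshold, and for Fyn and Lat only the step up to P/I-stimulated cells did. For Cd3e only the step between P/I-stimulated cells and the rest passed. For Cd3g both groups with P/I differed from each other and from the unstimulated ones, which did not differ. No step between neighbours passed for Cd247 or Plcg1. Against DMSO-treated cells, cells given both CHX and P/I were higher in 2 of 8 genes (12% of all tested probe sets were), Zap70 and Lcp2, and lower in Cd3g and Lat (10.7%, with 22.6% in either direction). The call for Lat (log2 -0.26) was lost in 6 of 23 alternatives, among them those without all replicate 2 (-0.27) or all replicate 3 arrays (-0.24). That for Cd3g (log2 -0.31) was lost without all replicate 3 arrays (-0.26).

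The genes whose values ran most closely with each member over the 12 arrays were searched among 8760 genes. The arrays share the 4 treatments, so a high Pearson r follows from any like response. Zap70 and Lcp2 had the same closest gene, Spry1, an inhibitor of receptor tyrosine kinase signalling (r = 0.99 for each), and they ran together with r = 0.98. Next came the checkpoint ligand Cd274 and Prrg4 for Zap70, and Srgn and Gch1, which encodes the first enzyme of tetrahydrobiopterin synthesis, for Lcp2. Fyn was closest to the class I molecule H2-M3 (r = 0.99), followed by Il1rap and Ero1b. Lat was closest to the nucleoside transporter Slc29a1 (r = 0.985), followed by the laminin chain Lamc1 and Hmgb3. Cd3g was closest to the kinase Map2k6 (r = 0.99), then Dipk1a and Cep164, and Cd3e to Cdh24 (r = 0.93), Ift46 and Vezf1. For Cd247 these were Acot8, Chd6 and Wdr78 (r from 0.90 to 0.92), and for Plcg1 Dpy19l3, Tmem135 and Fam160b1 (r from 0.91 to 0.945).

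The promoters of the genes that moved are shown so that those with a like response can be set side by side. They come from RefSeq on build GRCm38.p6, where all 9 genes were found, and hold the 250 bases before an annotated start, read 5′ to 3′ on the gene's strand. Capitals mark every match, on either strand, to GGAAA (the core of NFAT sites), TGANTCA (AP-1), TGACGTCA (cyclic AMP response element), AGGAAG (Ets factors), CAGCTG (an E box) and the NF-κB motif. Zap70 has several annotated starts, and the most upstream is shown. Zap70 and Lcp2, which rose with and without CHX, lie at chr1:36761548-36761797 on the plus strand and chr11:34046678-34046927 on the plus strand:
Zap70: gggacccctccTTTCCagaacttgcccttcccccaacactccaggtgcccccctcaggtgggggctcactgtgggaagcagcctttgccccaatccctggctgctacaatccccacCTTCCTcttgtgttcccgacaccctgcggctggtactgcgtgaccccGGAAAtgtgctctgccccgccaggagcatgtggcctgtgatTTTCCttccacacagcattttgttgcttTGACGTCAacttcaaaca
Lcp2: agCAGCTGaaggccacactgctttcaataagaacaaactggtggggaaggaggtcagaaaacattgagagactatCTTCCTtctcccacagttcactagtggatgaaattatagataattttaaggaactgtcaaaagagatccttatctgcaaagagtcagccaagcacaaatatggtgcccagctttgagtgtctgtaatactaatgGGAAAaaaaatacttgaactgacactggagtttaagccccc
Fyn and Lat, whose rise was called in DMSO-treated cells only, lie at chr10:39369549-39369798 on the plus strand and chr7:126369569-126369818 on the minus strand:
Fyn: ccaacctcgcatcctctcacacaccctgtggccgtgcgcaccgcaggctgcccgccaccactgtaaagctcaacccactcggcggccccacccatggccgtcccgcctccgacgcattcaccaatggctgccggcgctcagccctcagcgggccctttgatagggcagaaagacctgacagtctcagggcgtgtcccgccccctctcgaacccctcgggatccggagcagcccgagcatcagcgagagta
Lat: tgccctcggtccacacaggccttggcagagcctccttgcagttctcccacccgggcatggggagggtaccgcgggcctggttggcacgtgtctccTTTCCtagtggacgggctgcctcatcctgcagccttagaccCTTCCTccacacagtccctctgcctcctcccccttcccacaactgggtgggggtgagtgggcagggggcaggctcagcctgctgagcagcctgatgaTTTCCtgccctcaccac
Cd3e and Cd3g, which fell, lie at chr9:45009612-45009861 and chr9:44980432-44980681, both on the minus strand:
Cd3e: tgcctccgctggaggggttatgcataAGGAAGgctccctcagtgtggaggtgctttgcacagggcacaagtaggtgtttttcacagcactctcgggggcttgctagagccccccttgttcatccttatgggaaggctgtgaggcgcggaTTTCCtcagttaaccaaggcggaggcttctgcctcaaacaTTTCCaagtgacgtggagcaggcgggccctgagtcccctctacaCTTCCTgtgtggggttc
Cd3g: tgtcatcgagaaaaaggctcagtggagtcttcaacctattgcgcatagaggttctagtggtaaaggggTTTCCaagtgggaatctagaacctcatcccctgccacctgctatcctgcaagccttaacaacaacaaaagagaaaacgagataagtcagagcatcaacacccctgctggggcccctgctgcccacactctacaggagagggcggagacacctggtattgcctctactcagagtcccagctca

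At its most upstream start Zap70 held 1 match to the cyclic AMP response element, ending 10 bases before the start, and 3 to the NFAT core. Start 2 of Zap70 held 2 Ets matches and neither of these motifs, and start 3 held none of the motifs. Among 32851 promoter windows of the same length 1.55% held the former and 55.6% the latter. Lcp2 held 1 NFAT core, 1 Ets match and 1 E box, Lat held 2 NFAT cores and 1 Ets match, and Fyn held none of the motifs. Cd3e held 2 NFAT cores and 2 Ets matches and Cd3g held 1 NFAT core. The Ets motif was in 29.5% of all windows and the E box in 13%. No shown promoter held a match to AP-1 (6.75% of all windows) or NF-κB (3.9%). At the starts shown, Zap70 and Lcp2 shared the NFAT core and the Ets match, but Lat and Cd3e held both as well. That pair was thus not particular to the genes that rose with and without CHX. Cd3e and Cd3g shared the NFAT core, and Fyn and Lat none of these motifs. Of the genes not called with P/I in DMSO-treated cells, Cd247 held 1 Ets match and Plcg1 none of the motifs.

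The wider pathway was described with lists of receptors and coreceptors, of kinases, adaptors and effectors, and of inhibitors that act near the receptor, 56 measured genes in all. With P/I in DMSO-treated cells 12 were higher and 12 lower, which is 42.9% called, beside 17.5% of all tested probe sets. The median of the 56 was log2 0.061. CHX during P/I raised 10 and lowered 15 (44.6% called, beside 25.3%).

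Of 7 receptors and coreceptors, 1 rose with P/I and 1 fell (median log2 -0.014). The phosphatase Ptprc (CD45), which primes Src family kinases, rose by log2 0.51 (adjusted p = 0.00746 from limma), and Cd8b1, at low values, fell by 0.31 (adjusted p = 0.0944). With CHX during P/I 3 were lower and none higher, namely the costimulatory receptor Cd28 (log2 -0.82), Ptprc (-0.73) and the adhesion receptor Cd2 (-0.73).

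Of 28 kinases, adaptors and effectors, 6 rose and 5 fell with P/I (median log2 0.069). Tec, a Tec family kinase that can phosphorylate phospholipase C gamma, had log2 6.24 ± 0.13 without and 9.43 ± 0.0998 with P/I (SD, n = 3), a 9.09-fold rise (adjusted p = 1.19e-08 from limma). With CHX during P/I Tec was at log2 5.89 ± 0.091 (SD, n = 3), lower by log2 3.54 (adjusted p = 5.37e-09). The Grb2-like adaptor Grap rose by log2 1.65, the kinase subunit Pik3cd by 0.87 and the adaptor Nck1 by 0.64. Fyb, an adaptor that binds SLP-76, fell by log2 1.33, the kinase Abl1 by 1.03, Grap2 (Gads), which links Lat to SLP-76, by 0.96, and Wipf1, a partner of the WASP protein, by 0.76. These 7 changes had adjusted p from limma of 0.000378 to 0.0178. When CHX was present during P/I, 6 of the list were higher and 7 lower (median log2 0.21). The lower ones included Nck2 (log2 -1.56), Themis (-0.94) and Nck1 (-0.88), and the higher ones Sh2d2a (0.94), Sh2d1a (0.81), Pik3r1 (0.57) and Was (0.42). Of these, Sh2d1a was at low values, log2 4.68 in P/I-stimulated and 5.49 in CHX-treated P/I-stimulated cells.

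Of 21 inhibitors, 5 rose and 6 fell with P/I (median log2 0.080). The phosphatase Ptpn22, which dephosphorylates Src family kinases and Zap70, had log2 7.84 ± 0.081 without and 10.28 ± 0.14 with P/I (SD, n = 3), a 5.41-fold rise (adjusted p = 1.3e-07 from limma). Ubash3b (Sts-1), another phosphatase of Zap70, rose 4.45-fold, the phosphatase Dusp22 2.99-fold, and the adaptor Sla, which lowers receptor levels, 1.74-fold. Among those that fell were Map4k1 (log2 -1.04), Pstpip1 (-0.86), the phosphatase Ptpn6 (SHP-1, -0.79) and Csk (-0.53), the kinase that holds Lck and Fyn inactive. With CHX during P/I 4 were higher and 5 lower (median log2 0.061). Ubash3b (log2 -2.05), Ptpn22 (-1.87), Dusp22 (-1.85) and Dgkz (-0.84) were lower, and Ptpn6 (1.12), Ptpn2 (0.78), Map4k1 (0.70) and Pstpip1 (0.41) higher. Dgkz and Ptpn2 have 2 probe sets each, and the values given are from that with the higher mean only. Ptpn22 still rose when CHX-treated cells were stimulated, by log2 0.33 (adjusted p = 0.0822 from limma), and for Ubash3b that effect was log2 0.012 (adjusted p = 0.98).

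**Figure D3:**
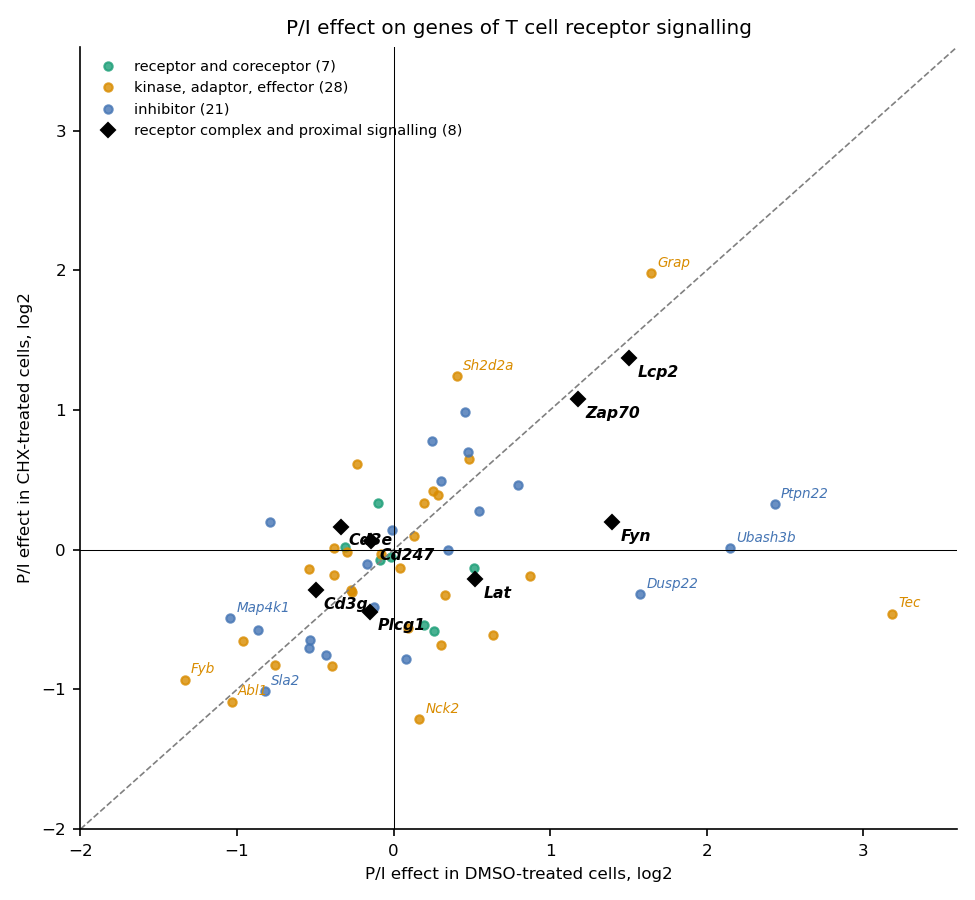
P/I effect in DMSO-treated cells (x axis) against that in CHX-treated cells (y axis), both in log2 units and from separate arrays, for the 8 genes (black diamonds) and 56 other genes of the pathway, coloured by list. The dashed line marks equal effects. Zap70, Lcp2 and Grap lie near it, while Fyn, Tec, Ptpn22, Ubash3b and Dusp22 lie far below it.

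**Figure D4:**
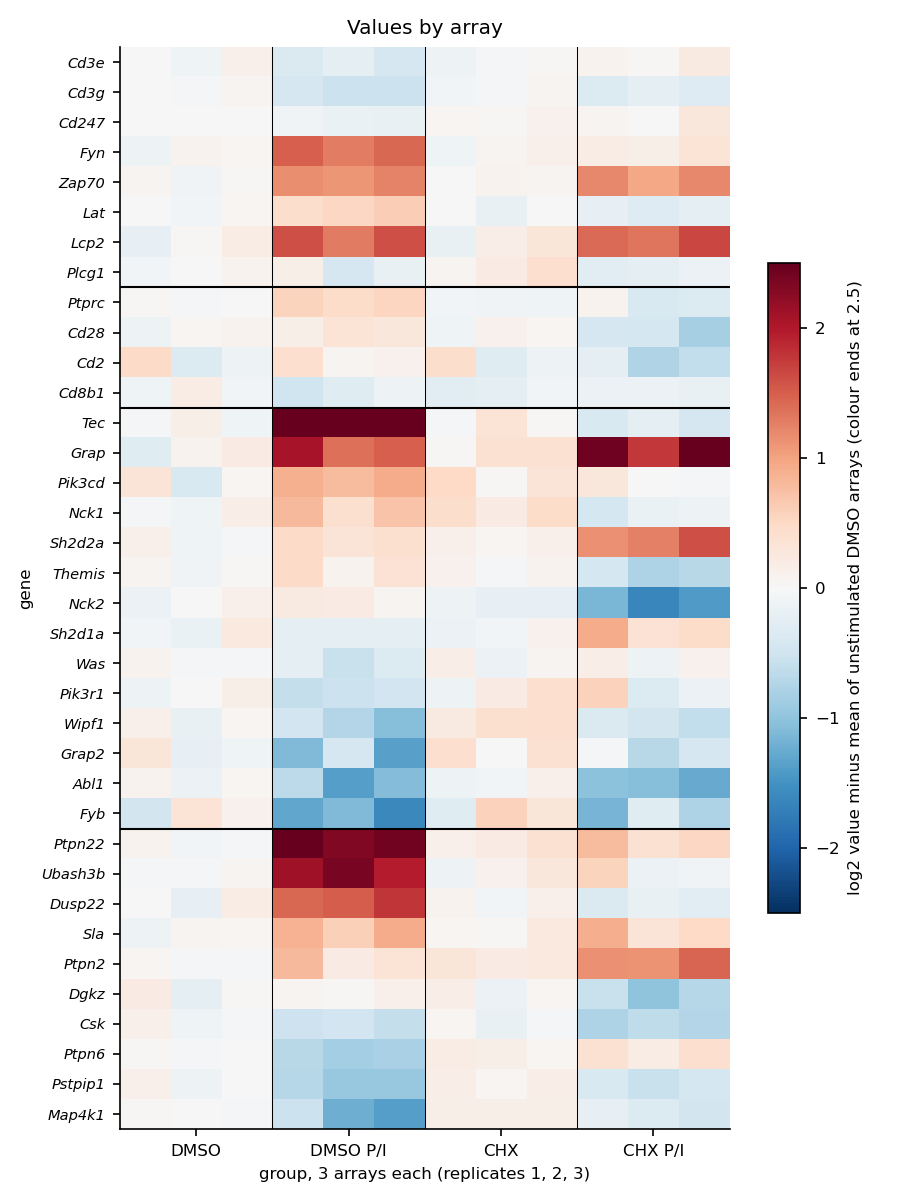
Values of each array (columns, 3 per group) minus the mean of the DMSO-treated arrays, in log2 units (colour), for the 8 genes (top block) and the named genes of the wider lists (rows), which were receptors, then kinases, adaptors and effectors, then inhibitors. Tec goes beyond the colour scale in P/I-stimulated cells, with a difference of log2 3.18.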

How the data were processed

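Expression was measured in 12 samples of EL-4 cells, 1 Affymetrix Mouse Gene 1.0ST array each. The deposited log2 values are the authors' own, made with RMA in Partek, where the background correction took probe sequence into account and arrays were quantile normalized (versions are not given in the sources used here), and no replicates were pooled. The table holds 35399 probe sets, and the 23410 with a symbol in the platform annotation were tested. Arrays of a group correlated at 0.987 to 0.997 across them. Precision is limited by having 3 arrays in each group, and p-values measure the spread between these samples.

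Group means were fitted to all 12 arrays by lmFit and eBayes of limma 3.58.1 under R 4.3.3 (8 residual and 3.63 prior degrees of freedom, two-sided tests), tested on simulated data. Where probe sets of a gene compete, the one with the highest mean was used. The members, lists and tests were chosen with earlier results of these data known. Named genes are all members, up to 4 genes with the smallest p per wider list, direction and comparison for P/I and for CHX during P/I, 5 genes that check the stimulation, and the 3 genes closest to each called member, among those with a mean of at least log2 5 and an SD of at least 0.2 (predicted genes passed over). Other genes were named after their values were seen. Promoter motifs were counted on both strands. Alternatives were other normalizations, filters, thresholds and variance models, a replicate block, and arrays left out.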

Additional observations from a re-analysis of the deposited data

Results flagged for a closer look

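The P/I effect differed between CHX-treated and DMSO-treated cells by the interaction test of limma for 19 of 41 named genes. These 41 were the 8 measured members, the genes named from the wider lists and the 5 that check the stimulation. Genes named only as closest to a member were not counted. Most of the 41 were named for their P/I effect or their CHX effect during P/I, which use the same P/I-stimulated arrays as the interaction, so this count is largely fixed by the choice and cannot be read against all probe sets. The difference, CHX-treated minus DMSO-treated, was negative for 15 of them and positive for 4. Among the receptor and proximal signalling genes it was log2 -1.20 for Fyn, -0.73 for Lat and 0.50 for Cd3e. Among the other receptors it was log2 -0.84 for Cd28 and -0.65 for Ptprc. Among the kinases, adaptors and effectors it was log2 -3.64 for Tec, -1.37 for Nck2, -1.25 for Nck1, -1.06 for Pik3cd and -0.98 for Themis. In that list it was positive for Sh2d2a (0.84) and, at low values, for Sh2d1a (0.85). Among the inhibitors it was log2 -2.14 for Ubash3b, -2.11 for Ptpn22, -1.90 for Dusp22, -0.86 for Dgkz and 0.99 for Ptpn6. For Il2 and Il2ra, which check the stimulation, it was log2 -5.40 and -1.85. The adjusted p-values of the 19 differences lay between 2.05e-07 and 0.0286. With groups of 3 arrays no single array was tested as an outlier.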

How the results depend on the processing

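The P/I increases of Fyn, Zap70, Lat and Lcp2 and the CHX effects during P/I of Fyn and Lat kept their direction and passed the threshold in all 23 alternatives, and so did the P/I decrease of Cd3g. After median centring 1 gene was higher with CHX during P/I, and after quantile normalization 2 had a positive interaction, Cd3e and Cd3g. Over all probe sets, centring moved the share of positive differences among called interactions from 44.2% to 29.4%. Effects that missed the threshold changed sign after quantile normalization for CHX during P/I of Lcp2 (0.0568), for CHX alone of Cd247 (-0.066), Zap70 (-0.0252) and Fyn (-0.046), and for the interaction of Zap70 (0.01) and Lcp2 (0.0013), and after centring for CHX alone of Cd3e (8e-04) and Cd3g (0.0363). With arrays left out, the genes called numbered 1 to 3 lower with P/I, 0 to 3 higher with CHX during P/I, 0 to 3 lower with P/I in CHX-treated cells, 0 to 1 and 1 to 2 for a positive and a negative interaction, and 0 to 2 lower with CHX and P/I against DMSO-treated cells. In those fits effects near 0 ranged, for CHX alone, from -0.104 to 0.0136 (Cd3e), -0.0507 to 0.0189 (Cd3g), -0.0366 to 0.0989 (Fyn), -0.0854 to 0.0172 (Lat), -0.0081 to 0.2341 (Lcp2) and -0.0229 to 0.1047 (Zap70). For CHX during P/I they ranged from -0.142 to 0.0411 (Lcp2), -0.1966 to 0.1222 (Plcg1) and -0.0973 to 0.0206 (Zap70), for P/I with CHX from -0.0239 to 0.1187 (Cd247), and for the interaction from -0.202 to 0.0102 (Zap70).

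Samples of the same replicate number deviated together, with r above 0.1 in 17 of 18 pairs (lowest 0.064), against 9 of 36 pairs of different numbers (highest 0.31). On average 11 of 12 arrays correlated best with their own number, and the single best partner of all 12 had it. This is a hint from the data and not from the design. With the replicate number as a block, 4 genes were higher and 2 lower with P/I (13.0% and 12.9% of all tested probe sets), 3 higher and 2 lower with CHX during P/I (16.5% and 16.0%), and 2 higher and 3 lower with P/I in CHX-treated cells (13.5% and 16.9%), where Lat was added (-0.21, adjusted p = 0.0603); Fyn was added among the genes higher with CHX and P/I (0.22, adjusted p = 0.0954). Over all probe sets, CHX alone gave 7 calls, 119 with the block, 751 without replicate 1 and 0 without replicate 2 or 3, with none of the 8 genes among them; the interaction gave 3196 calls, 5202 with the block and 699 without replicate 3, and P/I in DMSO-treated cells 4088 calls and 1650 without replicate 3. Other probe sets of a gene were not run, since each of the 8 genes has 1.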

Other observations

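Cd3g, Cd3d and Cd3e are neighbours on mouse chromosome 9, and of the genes whose values ran closest to Cd3e and Cd3g, Ift46 and Cep164 lie on the same stretch. This was noticed after the closest genes had been listed. The stretch from Ift46 to Cep164 holds 22 protein-coding genes in the RefSeq order, with Cd3g at place 7, Cd3d at 8 and Cd3e at 9, and 21 of them were measured. With P/I in DMSO-treated cells 5 were lower and 2 higher. The ends of the stretch, Ift46 and Cep164, were chosen for their values, and Cd3e and Cd3g are members of the set. Of the other 17 measured genes, Cd3d among them, 1 was lower and 2 higher, beside 8.42% and 9.05% of all tested probe sets. Besides Cd3g and Cd3e the lower ones were Cep164 (log2 -1.09), Ift46 (-0.60) and the histone methyltransferase gene Kmt2a (-0.50), with adjusted p from limma between 1.09e-05 and 0.0278. The higher ones were Mpzl3 (0.91) and the adhesion molecule Jaml (0.44). Ube4a and Mpzl2, which flank the Cd3 genes, had P/I effects of log2 -0.063 and 0.105 that did not pass the threshold.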
